A study of Mus musculus with 6 samples.

Results

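Transcripts of 9 genes that mark the contractile cells around blood vessels were followed in mouse palates that lacked Frizzled 1 alone or Frizzled 1 and Frizzled 2 together. Of these, 4 are smooth muscle genes (Acta2, Tagln, Cnn1 and Myh11) and 5 are pericyte genes (Rgs5, Cspg4, Kcnj8, Abcc9 and Notch3). Every probe set with one of these genes as its only symbol in the platform annotation was taken, which gave 19 of the 45037 probe sets on the array, 7 for smooth muscle genes and 12 for pericyte genes. Palates were microdissected in embryos at E13.5, when the palatal shelves have formed and not yet fused, and each RNA sample was read on an Affymetrix mouse array (MOE430_2). The double-null group held 3 samples of genotype Fz1-/-;Fz2-/-, and the Fz1-null group, against which it was set, held 3 samples of genotype Fz1-/-;Fz2+/+. All 6 samples therefore lacked Fz1 by genotype, came from a C57BL6/129 mixed background and were of mixed gender, and no wild-type palate was analysed here. The labels give neither the litter nor the number of embryos behind a sample, so the spread between samples may be technical in part.

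Vessels are built of an endothelial tube and a coat of mural cells, called pericytes on capillaries and vascular smooth muscle cells on larger vessels. Endothelial cells draw pericytes in with platelet-derived growth factor B, which the pericyte receptor Pdgfrb binds, and Notch ligands on endothelium act on Notch3 in mural cells. Smooth muscle genes are switched on by serum response factor (Srf), which binds a sequence called the CArG box, together with its partner myocardin (Myocd). Several of the 9 genes are not restricted to vessels: Acta2 and Tagln are also expressed in embryonic skeletal muscle and in contractile mesenchyme, and Cspg4 is also expressed in cartilage and in glial progenitors.

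Values are on the log2 scale of RMA, which ran from 2.83 to 14.7, and a difference is the double-null mean minus the Fz1-null mean. RMA gives no call of presence, so a low value was not read as absence, and levels of different probe sets were not set against each other. Fzd2, the targeted gene, read 10.21, 10.53 and 10.20 in double-null palates, against 11.46, 11.60 and 11.64 in Fz1-null palates, for its brightest probe set. The difference of -1.25 (SE 0.11) had an adjusted p of 0.217 in limma with genotype alone and 0.00889 with the pair as a block, so even a gene deleted by design did not pass without the block. Fzd1, null in both groups, differed by 0.08 (SE 0.07) and -0.04 (SE 0.10) for its probe sets, and without wild-type arrays these do not check its genotype. Of the palatal mesenchyme genes, Msx1 averaged 10.19 in double-null and 10.55 in Fz1-null palates, and Osr2 averaged 8.87 in double-null and 9.13 in Fz1-null palates. Samples carried the numbers 1 to 3 in each group, and deviations of same-numbered arrays from their group means correlated at 0.63, 0.44 and 0.63 over all probe sets. Same-numbered arrays were therefore also compared as pairs, a pairing taken from these data.

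None of the 19 probe sets passed the test for a difference between the genotypes. With limma, 0 of 19 lay under an adjusted p of 0.05, where the share over all probe sets was 0.0%, and with the pair as a block 0 of 19 did so as well, where that share was 0.00666%. At an unadjusted p under 0.05 there was 1 of 19, a probe set of Rgs5, against 0.957% of all probe sets. Double-null arrays lay wholly above Fz1-null arrays for 2 of 19 (2.79% of all probe sets), 1 of Myh11 and 1 of Rgs5, and wholly below them for 0 of 19 (1.73%). By group mean 13 of 19 were higher in double-null palates (47.9% of all). In all 3 pairs 3 of 19 were higher (11.6% of all), 1 each of Myh11, Rgs5 and Abcc9, and 0 of 19 were lower in all 3 (12.8%). The median absolute difference was 0.07 over the 19 probe sets and 0.05 over all probe sets.

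**Figure D1:**
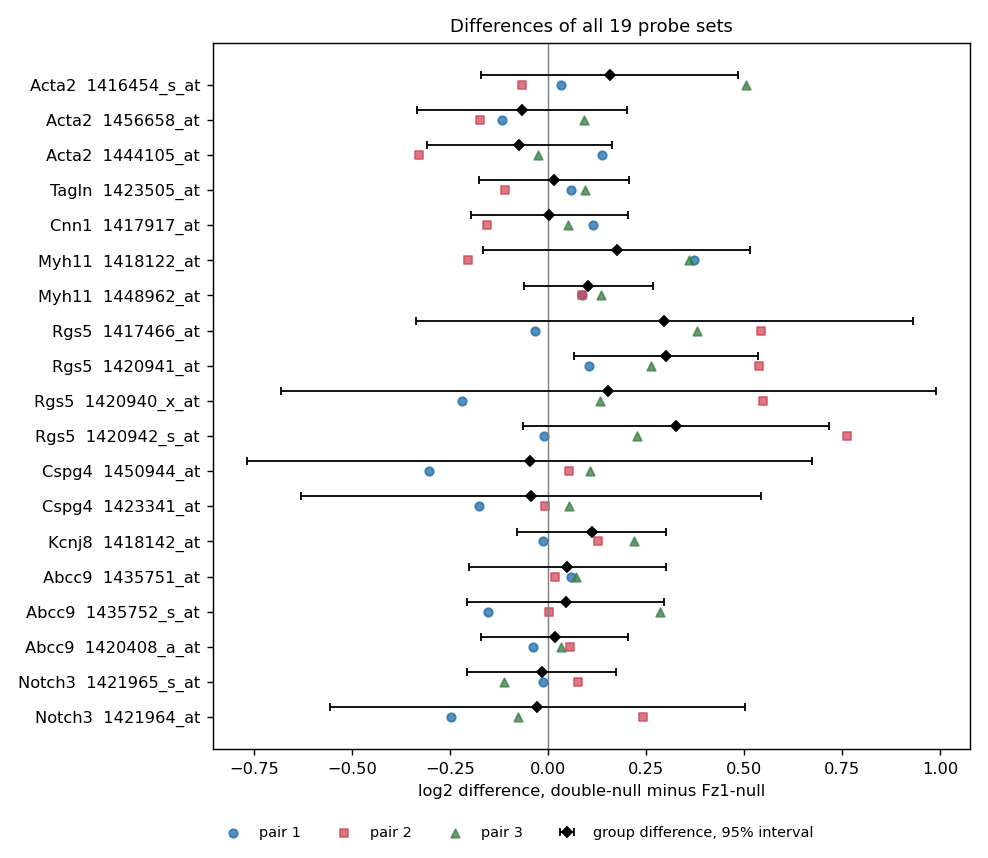
Log2 difference, double-null minus Fz1-null, for each of the 19 probe sets (rows, named by gene and probe set). Black diamonds with bars are the group difference with its 95% interval from limma, unadjusted, and coloured symbols are the differences of the 3 pairs; the interval stays above 0 for 1 probe set, Rgs5 1420941_at, and crosses 0 for the other 18.

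Acta2 encodes smooth muscle alpha-actin, the thin filament protein of contractile mural cells. Start-site windows from a table of RefSeq promoters (GRCm38.p6) were searched for 7 of the 9 genes, and those of Tagln and Myh11 were not analysed here. The 160 bases before the Acta2 start (chr19:34255374-34255533, minus strand) are shown because they carry the elements through which Srf, itself measured below, is known to act on this gene. They are written 5′ to 3′ and end at position -1 from the start. Capitals mark the matches of a script to a CArG box that has 1 base other than A or T in its middle.

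Acta2: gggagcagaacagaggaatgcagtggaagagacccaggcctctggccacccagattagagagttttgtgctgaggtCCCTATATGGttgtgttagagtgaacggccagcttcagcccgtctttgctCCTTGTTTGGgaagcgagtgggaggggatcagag

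The matches lie at -84 to -75 and at -34 to -25. Such a near-CArG box or a full one occurred, on either strand, in the 250 bases before 8.59% of 32851 start sites. Of the 7 genes searched, this held only for Acta2. A full CArG box was present before 1.47% of start sites and before 0 of the 7 searched. These letters describe the windows and show nothing of binding in these palates.

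For Acta2, the probe set 1416454_s_at read 10.78, 10.61 and 11.19 in double-null palates numbered 1 to 3, against 10.74, 10.68 and 10.68 in Fz1-null palates. Double-null array 3 stood above the other 5 arrays, while double-null array 2 was the lowest of all, so the groups overlapped. The group means were 10.86 ± 0.29 and 10.70 ± 0.04 (SD, n = 3 each), a difference of 0.16 (SE 0.14), or 1.12-fold with a 95% interval of 0.89 to 1.40, and limma's adjusted p was 1.00. Without double-null array 3 the difference was -0.01. In Affymetrix naming _s_at marks probes shared by several transcripts, and which transcripts share these probes was not looked up here. The other Acta2 probe sets read between 4.13 and 4.84 on all arrays and differed by -0.07 (SE 0.11) and -0.07 (SE 0.10), in the opposite direction. Both differences were smaller than their SE, and both probe sets read below the array medians (7.22 to 7.27). They therefore weigh little, and the gene's probe sets gave no clear common direction.

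Tagln encodes transgelin, an actin-binding protein of smooth muscle. It read 8.39, 8.30 and 8.51 in double-null palates, against 8.33, 8.41 and 8.42 in Fz1-null palates. All 6 values lay within 0.21 of each other and the groups overlapped. The difference was 0.01 (SE 0.08), or 1.01-fold with a 95% interval of 0.88 to 1.15 (adjusted p = 1.00).

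Cnn1 encodes calponin 1, which binds actin and restrains the myosin motor. It read 6.14, 6.12 and 6.16 in double-null palates, against 6.03, 6.28 and 6.10 in Fz1-null palates. The double-null values fell inside the Fz1-null range. The difference was 0.004 (SE 0.09), with a 95% interval of 0.87-fold to 1.15-fold (adjusted p = 1.00).

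Myh11 encodes the smooth muscle myosin heavy chain, the marker of this group with the narrowest expression. Its probe set 1418122_at read 6.15, 6.15 and 6.30 in double-null palates, against 5.78, 6.36 and 5.94 in Fz1-null palates. Fz1-null array 2 was the highest of the 6 and Fz1-null array 1 the lowest, so the spread lay in the Fz1-null group. This probe set differed by 0.18 (SE 0.15), or 1.13-fold with a 95% interval of 0.89 to 1.43 (adjusted p = 1.00). The second probe set, 1448962_at, read 5.80, 5.82 and 5.90 in double-null palates, against 5.71, 5.73 and 5.76 in Fz1-null palates. Here the groups did not overlap, and the double-null value was higher in each pair by 0.09, 0.09 and 0.13. The difference was 0.10 (SE 0.07), or 1.07-fold with a 95% interval of 0.96 to 1.20. Limma's adjusted p was 1.00, and the authors' deposited table gave an unadjusted p of 0.0336, against 0.385 for 1418122_at.

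**Figure D2:**
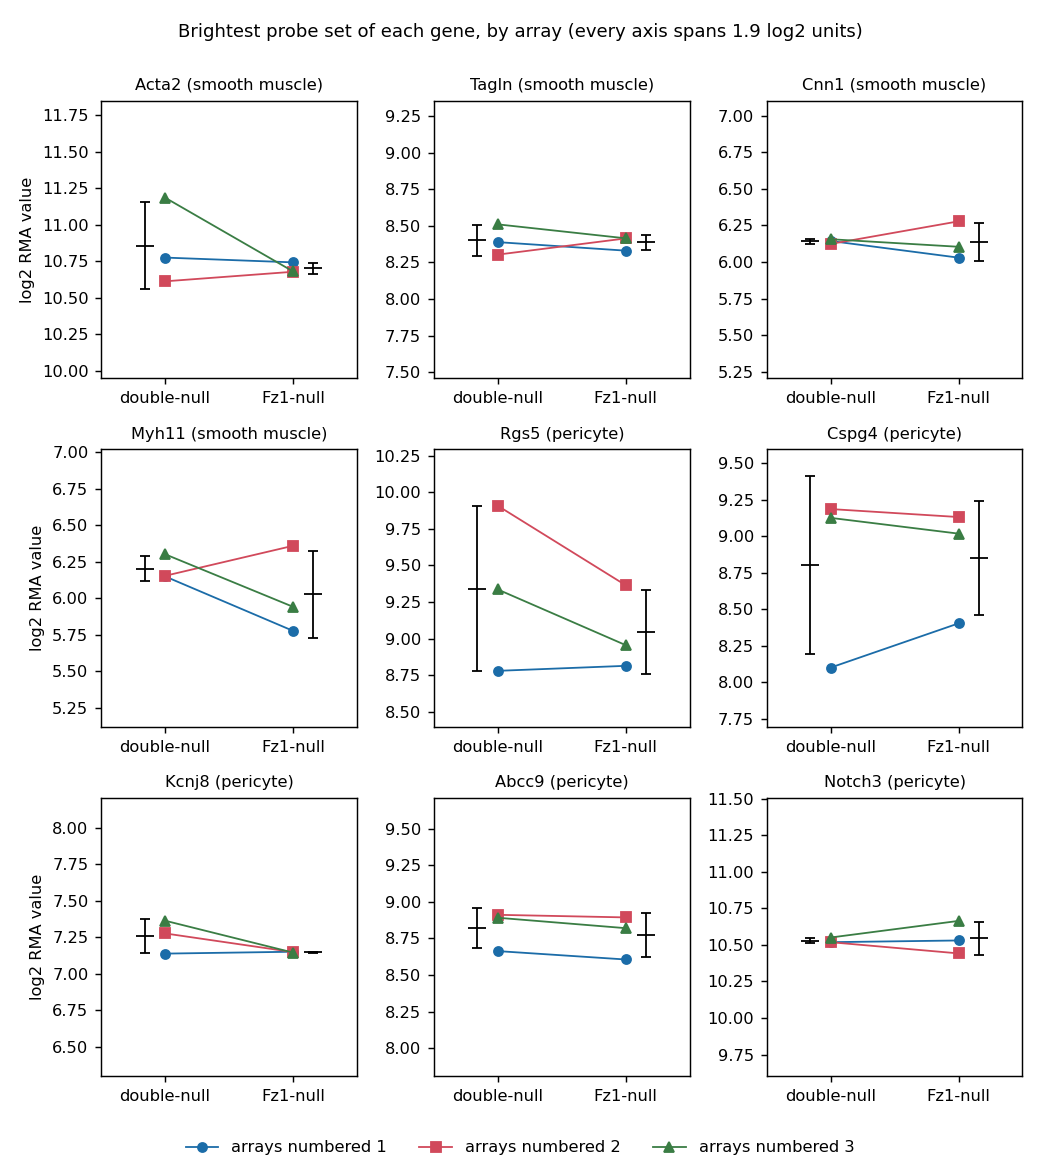
Log2 RMA value (vertical axis, 1.9 units in every panel) of the brightest probe set of each of the 9 genes in double-null and Fz1-null palates. Coloured symbols are arrays, lines join arrays of the same number, and black bars are mean and SD (n = 3); Rgs5 is higher in double-null arrays 2 and 3 than in their Fz1-null partners, and both arrays numbered 1 are low for Cspg4.

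As a group the 4 smooth muscle genes, each by its brightest probe set, were all higher in double-null palates by group mean, with a median difference of 0.09 against -0.01 over all 18193 named genes. With each gene averaged over its probe sets in place of the brightest, that median was 0.010 and the difference of Acta2 0.0059 (SE 0.08). In that average the low-reading Acta2 probe sets counted as much as the brightest. With array weights the median was 0.047. The brightest probe sets of Cnn1 and Myh11, with means of 6.14 and 6.11, also read below the array medians (7.22 to 7.27). Tagln and Cnn1 differed by only 0.01 and 0.004. All 4 smooth muscle genes were higher in pairs 1 and 3 and all 4 were lower in pair 2, with mean pair differences of 0.14, -0.13 and 0.25. In bulk tissue fewer cells of a type and less RNA per cell cannot be told apart, here or in any result that follows. Skeletal muscle genes moved with pair 3. Of 20 skeletal muscle markers 19 were highest in double-null array 3, as were 25.6% of all named genes, and their mean level was 8.06 to 8.85 in double-null palates and 8.16 to 8.27 in Fz1-null palates. Their mean pair differences were -0.10, -0.21 and 0.69. The regulator Myog read 8.81, 8.70 and 9.37 in double-null palates, against 8.86, 8.74 and 8.68 in Fz1-null palates. Actc1, an actin of striated muscle, read 11.10, 11.09 and 12.13 in double-null palates, against 11.31, 11.32 and 11.38 in Fz1-null palates. Without pair 3 the median of the smooth muscle genes was -0.02. The part of skeletal muscle in the Acta2 value of double-null array 3 was not tested.

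The genes whose array profile lay nearest to that of Acta2 were Hoxb5os, Celf4 and Vstm2a. Likeness was the root mean square distance over the 6 arrays between values centred on each gene's mean, among 5824 genes with enough spread. The distances were 0.0250, 0.0258 and 0.0398 log2 units, which is 0.121, 0.125 and 0.192 of the SD of Acta2 over the 6 arrays. Celf4, which encodes a neuronal RNA-binding protein, read 7.83, 7.67 and 8.25 in double-null palates, against 7.77, 7.74 and 7.67 in Fz1-null palates. All 3 shared the high value of double-null array 3.

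Among the pericyte genes Rgs5 had the largest difference between group means. It encodes a regulator that shortens signalling through G proteins and is a widely used pericyte marker. The probe set 1417466_at read 8.78, 9.91 and 9.34 in double-null palates, against 8.81, 9.36 and 8.96 in Fz1-null palates. Double-null array 2 was the highest, both arrays numbered 1 were the lowest, and the groups overlapped. The difference was 0.30 (SE 0.27), or 1.23-fold with a 95% interval of 0.79 to 1.91 (adjusted p = 1.00).

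The second Rgs5 probe set, 1420941_at, read 7.94, 8.29 and 8.11 in double-null palates, against 7.84, 7.75 and 7.85 in Fz1-null palates. All 3 double-null values were above all 3 Fz1-null values, and the pair differences were 0.10, 0.54 and 0.26. The group difference was 0.30 (SE 0.10), or 1.23-fold with an unadjusted 95% interval of 1.05 to 1.45. Limma's unadjusted p was 0.0184 and its adjusted p 1.00 (0.966 with the pair as a block), and the authors' deposited table gave an unadjusted p of 0.0449. For the other Rgs5 probe sets that table gave unadjusted p-values of 0.262 to 0.768.

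The remaining Rgs5 probe sets carry suffixes for shared or cross-hybridising probes. The _s_at set, 1420942_s_at, read 6.70, 7.41 and 6.90 in double-null palates, against 6.71, 6.65 and 6.67 in Fz1-null palates. Its Fz1-null values were nearly level, double-null array 1 was within their range, and the other double-null arrays were above it. The difference was 0.33 (SE 0.17), with a 95% interval of 0.96-fold to 1.64-fold (adjusted p = 1.00). The _x_at set, 1420940_x_at, read 7.46, 8.72 and 7.46 in double-null palates, against 7.68, 8.18 and 7.33 in Fz1-null palates. Both arrays numbered 2 were high there, and the difference of 0.15 (SE 0.36) was smaller than its error.

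Across the 4 probe sets all group means were higher in double-null palates, by 0.15 to 0.33, and in pair 2 the differences were 0.54 to 0.76. In pair 1 they ran from -0.22 to 0.10, so the direction did not hold there. The probe sets disagreed on the Fz1-null arrays: 1417466_at and 1420940_x_at were higher in array 2 than in arrays 1 and 3, while 1420941_at and 1420942_s_at were lowest in array 2. Without double-null array 2 the difference of 1417466_at was 0.01, and without double-null array 1 it was 0.58. With the pair as a block 3 of the 4 lay at an unadjusted p under 0.05 in limma, all higher. Over the members this was 3 of 19, all of this 1 gene. Of all probe sets 4.71% did so, with 2.77% higher in double-null palates. Limma's adjusted p with the block was 0.966 for each of the 4.

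**Figure D3:**
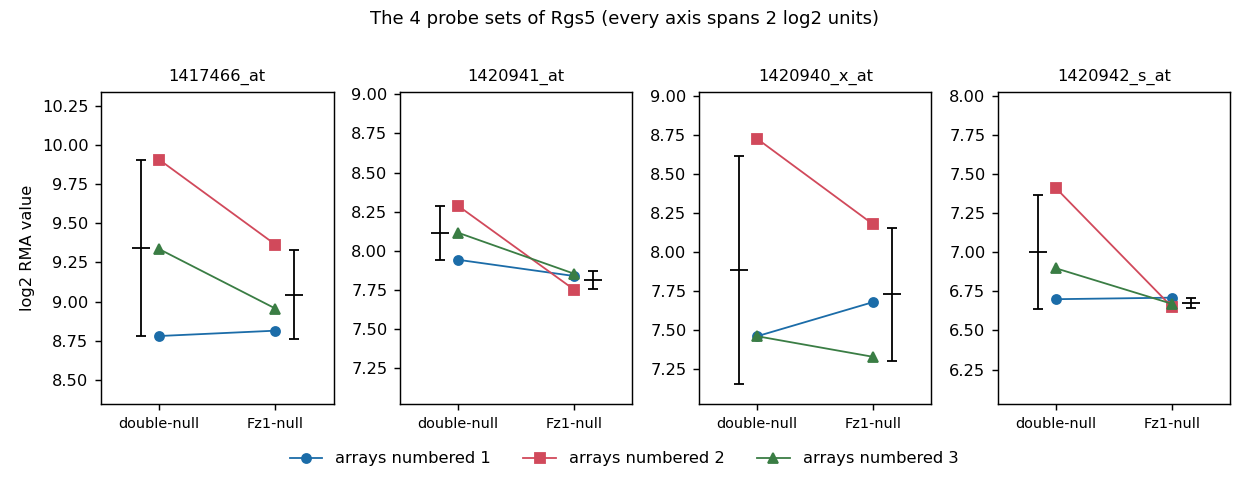
Log2 RMA value (vertical axis, 2 units in every panel) of the 4 probe sets of Rgs5 in double-null and Fz1-null palates. Coloured symbols are arrays, lines join arrays of the same number, and black bars are mean and SD (n = 3); double-null array 2 is the highest array in all 4 panels, and only 1420941_at separates the groups.

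The array in which Rgs5 was highest was also the array in which most endothelial markers were highest. Of 14 endothelial markers 9 were highest in double-null array 2, against 15.1% of all named genes. Their mean level was 8.69 to 8.92 in double-null palates and 8.71 to 8.80 in Fz1-null palates, with mean pair differences of -0.03, 0.21 and -0.02. Cdh5, the cadherin of endothelial junctions, read 8.92, 9.43 and 9.21 in double-null palates, against 9.17, 9.20 and 9.21 in Fz1-null palates. Pecam1, an endothelial adhesion molecule, read 8.46, 8.50 and 8.25 in double-null palates, against 8.36, 8.31 and 8.41 in Fz1-null palates. Macrophage markers showed the same array, 7 of 9 being highest in it. The part of vessel or macrophage content in the Rgs5 values was not tested.

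The profile nearest to that of Rgs5 belonged to Vwf, which encodes von Willebrand factor, a clotting protein of endothelial cells. It read 6.93, 7.78 and 7.33 in double-null palates, against 6.93, 7.28 and 6.96 in Fz1-null palates, with double-null array 2 again highest and both arrays numbered 1 low. Its distance from Rgs5 was 0.0997 log2 units, or 0.231 of the SD of Rgs5 over the 6 arrays. Calml4 and A2ml1 followed at 0.389 and 0.395 of that SD, among 671 genes with enough spread.

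Kcnj8 and Abcc9 encode the pore (Kir6.1) and the sulfonylurea receptor (SUR2) of the ATP-sensitive potassium channel of mural cells, and are neighbours on chromosome 6 with 0 protein-coding genes between them in RefSeq order. Kcnj8 read 7.14, 7.28 and 7.36 in double-null palates, against 7.15 in each of the Fz1-null palates. Double-null arrays 2 and 3 were above the Fz1-null level and double-null array 1 was just below it. The difference was 0.11 (SE 0.08), or 1.08-fold with a 95% interval of 0.95 to 1.23 (adjusted p = 1.00), and it stayed between 0.06 and 0.17 whichever array was left out.

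Abcc9 read 8.66, 8.91 and 8.89 in double-null palates, against 8.61, 8.89 and 8.82 in Fz1-null palates, for its probe set 1435751_at. Arrays of the same number were within 0.07 of each other, while arrays numbered 1 were below the rest. The double-null array was higher in all 3 pairs, and the difference was 0.05 (SE 0.11), or 1.03-fold with a 95% interval of 0.87 to 1.23 (adjusted p = 1.00). The other Abcc9 probe sets differed by 0.04 (SE 0.11) and 0.02 (SE 0.08), with pair differences from -0.15 to 0.29. The channel's other subunit genes, Kcnj11 and Abcc8, better known from pancreatic beta cells and neurons, differed by 0.09 (SE 0.09) and 0.07 (SE 0.11), and 0 of 2 passed.

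Notch3 encodes the Notch receptor of mural cells. Its probe set 1421965_s_at read 10.52, 10.52 and 10.55 in double-null palates, against 10.53, 10.44 and 10.66 in Fz1-null palates. The double-null arrays were inside the Fz1-null range. The difference was -0.02 (SE 0.08), or 0.99-fold with a 95% interval of 0.87 to 1.13 (adjusted p = 1.00), among the narrowest intervals of the pericyte genes.

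The second Notch3 probe set, 1421964_at, spread far more. It read 9.01, 9.43 and 9.76 in double-null palates, against 9.26, 9.18 and 9.84 in Fz1-null palates, with both arrays numbered 3 highest. Its difference of -0.03 (SE 0.23) had a 95% interval of 0.68-fold to 1.42-fold. Of 13 Notch partners and targets 6 were higher and 7 lower, with a median difference of -0.002, and 0 passed in either direction. Nrarp, a target that limits Notch signalling, read 10.07, 10.12 and 10.13 in double-null palates, against 9.97, 9.89 and 9.96 in Fz1-null palates, a difference of 0.16 (SE 0.07, adjusted p = 1.00) without overlap. The ligand gene Dll1 differed by 0.19 (SE 0.10) and the target Hey1 by -0.11 (SE 0.09).

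Cspg4 encodes the NG2 proteoglycan, a surface protein of pericytes and of several immature mesenchymal cells. Its probe set 1450944_at read 8.10, 9.19 and 9.12 in double-null palates, against 8.40, 9.13 and 9.02 in Fz1-null palates. Both arrays numbered 1 lay well below the other 4, whatever the genotype. The second probe set, 1423341_at, read 7.83, 8.68 and 8.58 in double-null palates, against 8.01, 8.68 and 8.52 in Fz1-null palates, the same order of numbers. The differences were -0.05 (SE 0.31) and -0.04 (SE 0.25), and with the pair as a block their SE was 0.09 and 0.07. With 95% intervals of 0.59-fold to 1.60-fold and 0.65-fold to 1.46-fold, a sizeable difference in either direction would be compatible with the unpaired fit.

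The profile of Cspg4 lay near those of cartilage genes. It was added to the profile comparison after its values were seen. Its nearest profiles were Col9a3, a collagen of cartilage, and Matn4, a matrilin of cartilage matrix, at 0.0764 and 0.0847 log2 units (0.167 and 0.185 of the SD of Cspg4), among 551 genes with enough spread. Col9a3 read 10.52, 11.54 and 11.62 in double-null palates, against 10.75, 11.48 and 11.55 in Fz1-null palates. The third was Ncmap, a myelin-associated protein gene, at 0.213 of that SD. Of 6 cartilage markers 5 were lower in both arrays numbered 1 than in the other 4, as were 16.3% of all named genes. Their mean level was 9.93, 10.79 and 10.89 in double-null palates, against 10.10, 10.77 and 10.87 in Fz1-null palates. The part of cartilage in the Cspg4 values was not tested. Schwann and glial markers, 4 of 6 measured, did not show this order, with mean levels of 8.79 to 8.84 in double-null palates and 8.77 to 8.87 in Fz1-null palates.

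**Figure D4:**
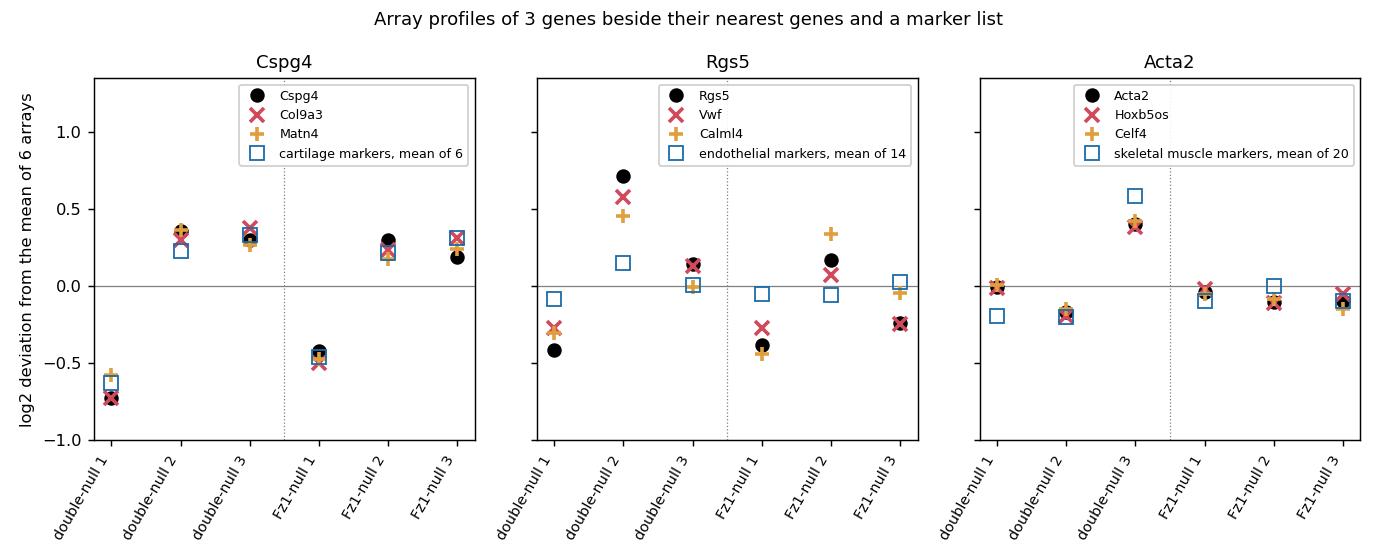
Log2 deviation from the mean of the 6 arrays (vertical axis) on each array (horizontal axis, double-null arrays left of the dotted line and Fz1-null arrays right of it) for Cspg4, Rgs5 and Acta2. Filled circles are the gene, crosses its 2 nearest genes by profile, and open squares the mean of a marker list; Cspg4 and the cartilage markers are low in both arrays numbered 1, Rgs5 and Vwf are highest in double-null array 2, and Acta2 and skeletal muscle markers in double-null array 3.

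The 5 pericyte genes, each by its brightest probe set, were higher in 3 and lower in 2 by group mean, with a median difference of 0.05 against -0.01 over all named genes. Mean pair differences were -0.06, 0.16 and 0.13, with 1, 5 and 4 of the 5 higher. Arrays numbered 1 were the lowest 2 of the 6 for 3 of the 5 (Rgs5, Cspg4 and Abcc9), as for 16.3% of all named genes. Over the 19 member probe sets this held for 4, or 21.1%, against 16.3% of all probe sets. Leaving out 1 array moved the median between -0.02 and 0.17.

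Further genes of the same cells, and markers of other cell types, were read from lists chosen with earlier results of these data known. Of 158 measured genes in 15 lists, 0 passed an adjusted p of 0.05 in either direction, without or with the pair as a block. In a blocked fit without pair 1, chosen after seeing the data, 93 of all 45037 probe sets passed (0.206%), and 5 of the 158 genes. Vtn and Myocd were higher in double-null palates by 0.85 and 0.59. The epithelial markers Krt5 and Krt14 and the mesenchymal marker Msx1 were lower. That fit rested on the arrays numbered 2 and 3 alone. In pair 1, which it left out, Krt5, Krt14 and Msx1 were higher in the double-null array, by 0.18, 0.11 and 0.06. Blocked fits without pair 2 or without pair 3 passed 0 of the 158 genes.

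Other smooth muscle contractile genes were lower in 14 of 20, with a median difference of -0.08, while the 4 members had a median of 0.09. The 6 higher genes were Lmod1 by 0.12, Synpo2 by 0.11, Actg2 by 0.10, Des by 0.06, Pln by 0.02 and Mylk by 0.003. These were named after their values were seen, and none passed. Flna, the actin cross-linker filamin A, read 11.28, 11.37 and 11.36 in double-null palates, against 11.47, 11.45 and 11.50 in Fz1-null palates. Cnn2, the broadly expressed calponin 2, differed by -0.14 (SE 0.08), and Myl9, the regulatory myosin light chain, by -0.11 (SE 0.08). These 3, named by smallest p, were lower in all 3 pairs without overlap between groups, and none passed (adjusted p = 1.00 for each). In the whole list 5 of 20 lay lower without overlap, these 3 with Tpm1 and Vcl, which were named after their values were seen, and 0 of 20 lay higher, against 348 lower and 498 higher of all 18193 named genes.

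Of 12 SRF and smooth muscle transcription factors 6 were higher and 6 lower, with a median of 0.004. Srf, the CArG box factor, read 8.78, 8.98 and 8.94 in double-null palates, against 8.88, 9.05 and 9.02 in Fz1-null palates, a difference of -0.09 (SE 0.09). Myocd, its muscle-restricted partner, read 7.29, 7.62 and 6.90 in double-null palates, against 7.06, 6.66 and 6.67 in Fz1-null palates. It was higher in each pair, by 0.23, 0.96 and 0.22, and the groups overlapped. The difference of 0.47 (SE 0.19), or 1.39-fold, did not pass (adjusted p = 1.00, and 0.966 with the pair as a block). Tbx18, a T-box factor of mural cells, gave 0.45 (SE 0.32), and its pairs 0.31, 1.06 and -0.01. Nkx2-3, a homeobox factor of gut and pharyngeal mesenchyme, differed by 0.19 (SE 0.08), without overlap.

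Other pericyte genes were higher in 13 of 20, with a median difference of 0.10 and a range of -0.16 to 0.65. Pdgfrb, the receptor that recruits pericytes, read 10.30, 10.35 and 10.13 in double-null palates, against 10.33, 10.48 and 10.44 in Fz1-null palates. Its difference of -0.16 (SE 0.09) was in the other direction from that of Rgs5 and did not pass (adjusted p = 1.00). Pdgfrb is also expressed throughout palatal mesenchyme. The upper end of the range was Vtn, the matrix glycoprotein vitronectin, at 8.66, 9.12 and 8.88 in double-null palates, against 8.40, 8.07 and 8.22 in Fz1-null palates. The groups did not overlap, and the difference of 0.65 (SE 0.14) did not pass (adjusted p = 1.00, and 0.966 with the pair as a block). Higd1b, a mitochondrial protein gene used as a pericyte marker, differed by 0.20 (SE 0.11) and was lower in pair 3 by 0.06.

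Of 11 measured genes of mural recruitment 6 were higher and 5 lower, with a median of 0.02. Tek, the endothelial receptor for angiopoietins, read 8.40, 8.32 and 8.37 in double-null palates, against 8.26, 8.19 and 8.22 in Fz1-null palates. It was higher in each pair, by 0.13 to 0.15, and its difference of 0.14 (SE 0.07) did not pass (adjusted p = 1.00). Angpt2, a ligand of that receptor, differed by 0.08 (SE 0.09). Of the endothelial markers 11 of 14 were higher, with a median of 0.04. Cldn5, an endothelial tight junction gene, differed by 0.20 (SE 0.08) without overlap, Sox17 by 0.12 (SE 0.11) and the VEGF receptor gene Kdr by 0.16 (SE 0.16).

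**Figure D5:**
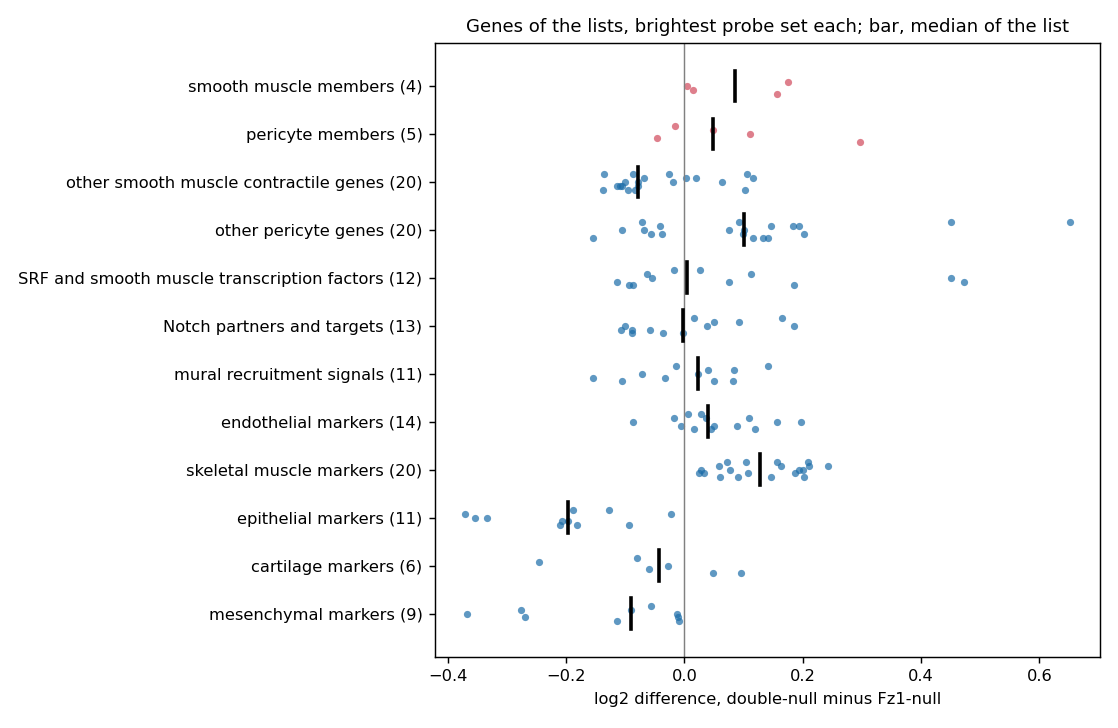
Log2 difference, double-null minus Fz1-null (horizontal axis), of each gene (points, brightest probe set) in the 2 groups of members (red) and in 10 other lists (blue), with the number of genes measured in brackets. Black bars are list medians; the smooth muscle and pericyte members have medians of 0.09 and 0.05, the other contractile genes -0.08 and the other pericyte genes 0.10.

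Markers of the other tissues of the palate were read on the same arrays. Epithelial markers were lower in 11 of 11, with a median of -0.20 and mean pair differences of -0.01, -0.11 and -0.51, Krt14, Krt5 and Trp63 differing by -0.37 (SE 0.16), -0.35 (SE 0.18) and -0.33 (SE 0.18). Skeletal muscle markers were higher in 20 of 20, with a median of 0.13 that rested on pair 3, and Myf6 and Ckm differed by 0.16 (SE 0.13) and 0.20 (SE 0.17). Mesenchymal markers were lower in 9 of 9, with a median of -0.09, and neuronal markers in 6 of 7, with a median of -0.17. The mean pair differences of the neuronal markers were -0.38, -0.15 and 0.11, and 7 of 7 were higher in pair 3. Erythroid markers were higher in 5 of 5 measured (0.07), macrophage markers in 8 of 9 (0.05), glial markers in 2 of 4 (0.01) and cartilage markers in 2 of 6 (-0.04). None of these genes passed the test without the block or with it.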

How the data were processed

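The authors deposited log2 values per probe set made with RMA, per the submitters' processing notes, which name no version. The authors also deposited a table of their own comparison with an unadjusted p-value, a fold change on the log2 scale and a signed fold change on the linear scale, per the file headers; its fold change equals the Fz1-null minus the double-null mean (largest deviation 4.93e-08), the opposite sign to differences here. Quantile normalisation within RMA hides a shift shared by most transcripts.

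Of 45101 probe sets 64 controls were left out. Symbols came from the platform annotation, updated by Entrez identifier to RefSeq GRCm38.p6: 34945 probe sets had 1 symbol, 932 several and 9160 were not listed. Promoter sequences are RefSeq's. limma 3.58.1 in R 4.3.3 (lmFit, eBayes) was run on all 45037 probe sets with genotype as the only term, 3 arrays a group, Benjamini-Hochberg adjustment over all of them, two-sided, threshold 0.05. SE and 95% intervals are limma's. An exact permutation test of 3 against 3 arrays cannot give a p below 0.1 and was not used. The fit without the block was tested on simulated data in which arrays were independent, and the blocked fit was not. Same-numbered arrays of the real data correlated at 0.63, 0.44 and 0.63, so the simulation does not cover that dependence.

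Replicate numbers pair arrays because deviations of all 3 same-numbered pairs correlated above 0.1; the block was therefore also fitted. Genes of each list are given by the probe set with the highest mean, named by rule: all members, up to 3 genes per list by smallest p, fixed markers, and 3 nearest profiles for Acta2 and Rgs5 among genes whose SD is at least that of the member divided by 1.5. The members and lists were chosen with earlier results of these data known.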

Additional observations from a re-analysis of the deposited data

How the results depend on the processing

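The count of member probe sets past the threshold was 0 under all 22 alternatives, which were the replicate block, the dim probe set filter, an intensity trend, robust moderation, repeated quantile normalisation, log2 of the value plus 32, centring on medians, array weights, an adjusted p threshold of 0.1 and leaving out each array, and, chosen after seeing the data, leaving out each pair with or without the block and the deposited p-values adjusted. The replicate block changed no call of a member or list gene: it left 0 of 19 and 0 of 158 past the threshold, and the count of list genes was 5 in the replicate block fit without pair 1, where 93 of all 45037 probe sets passed. The cause was not tested. Without 1 array both counts were 0.

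The smooth muscle median ran from -0.01 to 0.13 and the pericyte median from -0.02 to 0.17 with 1 array left out, and the smooth muscle median was -0.018 without pair 3, 0.010 with each gene averaged over its probe sets and 0.047 with array weights. Differences near 0 changed sign. Tagln gave -0.011 with array weights; Cnn1 gave -0.021 with repeated quantile normalisation, -0.0026 with centring and -0.0089 with array weights; and Notch3 gave 0.019 with repeated quantile normalisation. Leaving out 1 array gave ranges of -0.0065 to 0.28 for Acta2, -0.040 to 0.063 for Tagln, -0.050 to 0.074 for Cnn1, -0.27 to 0.30 for Cspg4, -0.035 to 0.13 for Abcc9 and -0.068 to 0.043 for Notch3, each changing sign. Rgs5 (0.01 to 0.58), Myh11 (0.05 to 0.34) and Kcnj8 (0.06 to 0.17) did not. For Rgs5, Cspg4, Abcc9 and Kcnj8 the highest values came without double-null array 1. The lowest values of Cspg4, Abcc9, Cnn1 and Myh11 came without Fz1-null array 1. Their cause was not tested. Myh11, Cnn1 and Kcnj8 lay under the dim filter and had no value there. Precision is limited by having 3 arrays a group.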
